A study of Homo sapiens with 60 samples.

Results

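The 42 genes described here build and run the mitotic spindle and separate the chromosomes. They are the cyclins and kinases that start mitosis, spindle motors and microtubule-binding proteins, kinetochore and spindle checkpoint proteins, and the chromosomal passenger complex. The rest are condensin and cohesin factors, regulators of the anaphase-promoting complex, listed together with CDCA3, and proteins of the central spindle and cytokinesis. All were chosen by gene symbol for these roles, as 42 of the 60675 genes of the deposited count table. CENPE, CENPF and MKI67 were left out. All 42 were among the 17851 genes that passed the filter on low counts, and the lowest count of any of them in any library was 195.

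RNA of SW1783 cells, a human astrocytoma line obtained from the ATCC and kept in L-15 medium, was sequenced in 60 libraries after 24 h with a herbal extract or with the vehicle, dimethyl sulfoxide (DMSO). Yijin-tang and Soshiho-tang, decoctions of several herbs, were water extracts, and the single herbs were ethanol extracts. Doses of 500 (high), 100 (medium) and 20 (low) µg/mL were used for both decoctions and for Zizyphi Semen, Longan Arillus and Liriopis seu Ophiopogonis Tuber. The doses were 310, 62 and 12.4 µg/mL for Schisandrae Fructus, 160, 32 and 6.4 µg/mL for Aucklandiae Radix, and 30, 6 and 1.2 µg/mL for Polygalae Radix. For extracts whose IC20 lay below the usual top dose the design text sets the high dose at the IC20. Each dose had 3 libraries, except Soshiho-tang with 2 and Polygalae Radix and Aucklandiae Radix with 1, and the vehicle had 3. All groups share one cell line, and the labels and the design text give different DMSO concentrations for the vehicle.

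Total counts per library ran from 18.73 to 35.52 M. By the prefix of their names the libraries fall into 5 sets, whose meaning the labels do not give, and the vehicle libraries form a set of their own, so a difference between a treated group and the vehicle cannot be told apart from a difference between sets. Each extract's high and medium doses were therefore set against its own low dose, from one library set; the herbs with 1 library per dose were compared with the vehicle as a description. Nothing says that the libraries of a group came from separate cultures, so the spread behind each p-value may be technical. Longan Arillus medium replicate 3 stood apart, with an SD of 0.247 (log2) from its group mean over genes against at most 0.144 in the other replicated libraries. Of 9 astroglial markers, GFAP, S100B, AQP4, ALDH1L1 and SLC1A2 stayed at or below 0.531 CPM (counts scaled to a common library size of 1 M) in every library, while SLC1A3, SOX9, VIM and NES were detected, as were all 7 fibroblast and mesenchymal markers.

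In dividing cells, cyclin B with CDK1 starts mitosis, kinesins and microtubule-binding proteins shape the spindle, and the checkpoint holds back the anaphase-promoting complex until every kinetochore is attached. The complex then marks securin and cyclin B for destruction, separase cuts cohesin, and the central spindle guides the cleavage of the cell. Most of these genes are transcribed late in the cell cycle, when protein complexes containing MuvB bind a short promoter element, the cell cycle genes homology region (CHR), together with the factor NF-Y at CCAAT boxes; MuvB complexes repress the same genes in resting cells and, with B-MYB (MYBL2) and FOXM1, activate them before mitosis.

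Promoter sequences were found in RefSeq (GRCh38.p14, 250 bases before to 50 after the gene start) for 36 of the 42 genes; AURKA, BIRC5, BUB3, TPX2, TTK and UBE2C had no entry. The 5 promoters printed here belong to genes on which the results turn: KIF20A and PLK1, KIF2C and CCNA2, and HMMR. Each is given 5′ to 3′ on the strand of the gene, from 180 bases before the start to 10 after it. Capitals mark TTTGAA or TTTAAA, the letters searched as CHR, and CCAAT, the letters of the NF-Y box, each on either strand, so that a CCAAT on the other strand reads ATTGG.
KIF20A, chr5:138178932-138179121, plus strand: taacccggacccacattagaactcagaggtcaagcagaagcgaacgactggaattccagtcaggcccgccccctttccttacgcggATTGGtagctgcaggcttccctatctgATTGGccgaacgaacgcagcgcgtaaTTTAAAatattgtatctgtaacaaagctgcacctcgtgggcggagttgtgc
PLK1, chr16:23678709-23678898, plus strand: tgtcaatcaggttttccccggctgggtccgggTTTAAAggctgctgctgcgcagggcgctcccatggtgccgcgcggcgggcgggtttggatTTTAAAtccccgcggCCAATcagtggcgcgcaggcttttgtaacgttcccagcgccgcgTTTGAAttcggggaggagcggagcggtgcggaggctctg
KIF2C, chr1:44739657-44739846, plus strand: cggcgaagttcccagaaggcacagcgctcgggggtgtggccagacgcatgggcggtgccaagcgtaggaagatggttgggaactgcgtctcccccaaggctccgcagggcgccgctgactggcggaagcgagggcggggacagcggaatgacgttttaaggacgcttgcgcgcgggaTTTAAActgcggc
HMMR, chr5:163460452-163460641, plus strand: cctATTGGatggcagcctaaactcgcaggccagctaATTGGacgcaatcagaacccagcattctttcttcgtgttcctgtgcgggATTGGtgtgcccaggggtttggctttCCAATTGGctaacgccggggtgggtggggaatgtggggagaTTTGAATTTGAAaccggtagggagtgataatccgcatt
CCNA2, chr4:121823874-121824063, minus strand: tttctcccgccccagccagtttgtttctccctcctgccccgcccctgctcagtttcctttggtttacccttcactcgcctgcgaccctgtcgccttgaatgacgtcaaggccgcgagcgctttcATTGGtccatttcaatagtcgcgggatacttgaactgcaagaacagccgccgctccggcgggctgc

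The KIF20A promoter holds 1 CHR match, 41 bases before the start, and 2 CCAAT boxes on the other strand, 94 and 67 bases before it. The PLK1 promoter holds 3 CHR matches and 1 CCAAT box, and its TTTGAA begins 29 bases before the start. In the HMMR promoter 2 TTTGAA matches follow each other directly, and 2 of its 5 CCAAT boxes overlap on opposite strands. The KIF2C promoter has 1 CHR match, which crosses the start, and no CCAAT box, whereas the CCNA2 promoter has 1 CCAAT box and neither TTTGAA nor TTTAAA.

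Either form of the CHR was found in 29 of the 36 promoters (80.6%) and in 24.0% of the 35116 promoters in the table. A CCAAT box was found in 29 (80.6%) against 34.6%, and both motifs in 24 (66.7%) against 9.3%. A window from 50 bases before to 30 after the start was chosen after the matches were seen. In it 69.4% of the mitotic gene promoters and 6.7% of all promoters held TTTGAA or TTTAAA. Other spellings of the CHR were not searched. A match describes letters only; whether a factor binds there was not measured, and the 7 genes without TTTGAA or TTTAAA in the 300 bases searched are described only by the lack of these letters there.

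**Figure D1:**
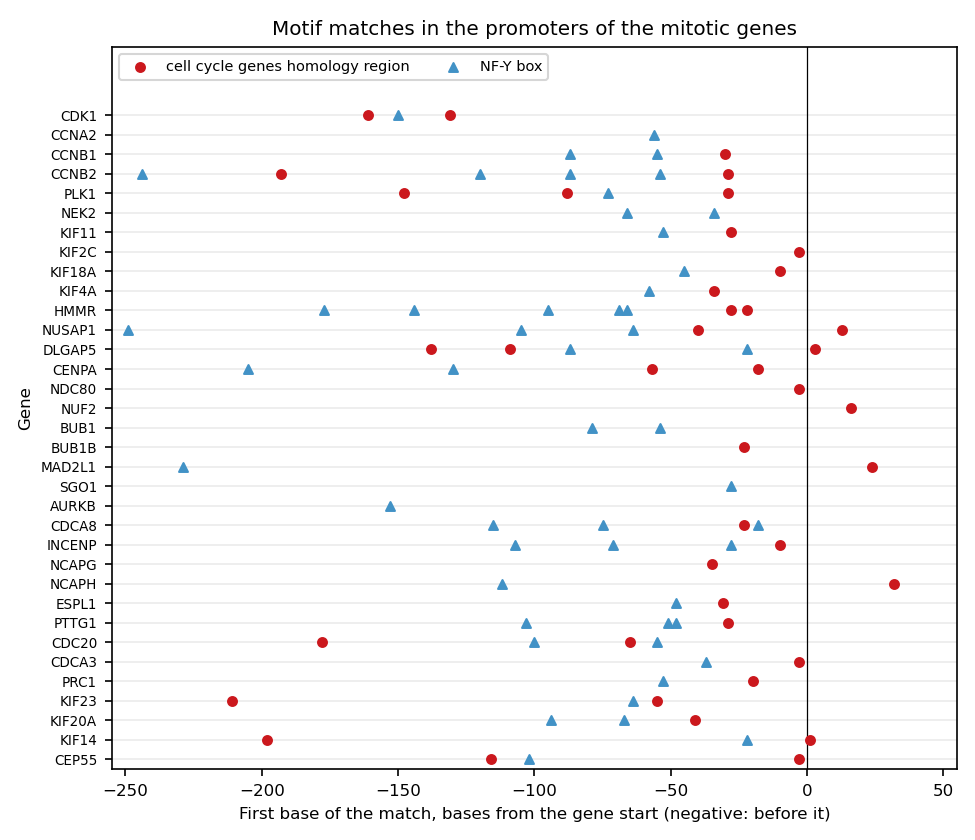
Positions of CHR matches (red circles) and CCAAT boxes (NF-Y boxes, blue triangles) in the promoters of the mitotic genes with at least 1 match; the x axis is the distance of the first base of a match from the gene start in bases, and each row is a gene. Most CHR matches sit close to the start, and the CCAAT boxes mostly lie before them.

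The 42 genes covered a wide range of levels. Over the 20 libraries of the vehicle and of the low doses of the replicated extracts, CDC20, the activator of the anaphase-promoting complex, had the highest level per kilobase of transcript (130 CPM per kb), followed by PTTG1, the separase inhibitor securin (120), and UBE2C, the ubiquitin-conjugating enzyme of the complex (84.4). ESPL1, separase itself, had the lowest (4.33), next to KIF14, a kinesin of the midbody (6.42). PTTG1 has a close copy, PTTG2, between which expected counting can split reads, so its values are uncertain, as are those of UBE2C, which has pseudogene copies. Between-library spread was small beside these differences: CDC20 lay between 215 and 268 CPM and ESPL1 between 24.3 and 31.4 CPM in those 20 libraries.

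Summed over the 42 genes, the level at the high dose was above that at the low dose for 3 extracts and below it for 2 others, as a description with no test. Vehicle libraries had 3370, 3450 and 3410 CPM. Schisandrae Fructus reached 3980, 4040 and 4030 CPM at the high dose against 3380, 3330 and 3380 at the low dose, and Yijin-tang 3630, 3640 and 3740 against 3330, 3410 and 3420. Longan Arillus had 3610, 3640 and 3770 against 3450, 3430 and 3590 CPM, and in these 3 extracts every high-dose library lay above every low-dose library. Soshiho-tang stood at 3090 in both high-dose libraries against 3470 and 3570 CPM, and Zizyphi Semen at 3330, 3210 and 3280 against 3480, 3350 and 3370, with every high-dose library below every low-dose one. In Liriopis seu Ophiopogonis Tuber the doses overlapped, with 3380, 3420 and 3360 against 3510, 3520 and 3400 CPM. The lowest sums of all 60 libraries were in the single high-dose libraries of Aucklandiae Radix (1380 CPM) and Polygalae Radix (2330 CPM). In RNA from whole cultures, fewer cells in mitosis and less RNA of these genes per cell cannot be told apart.

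**Figure D2:**
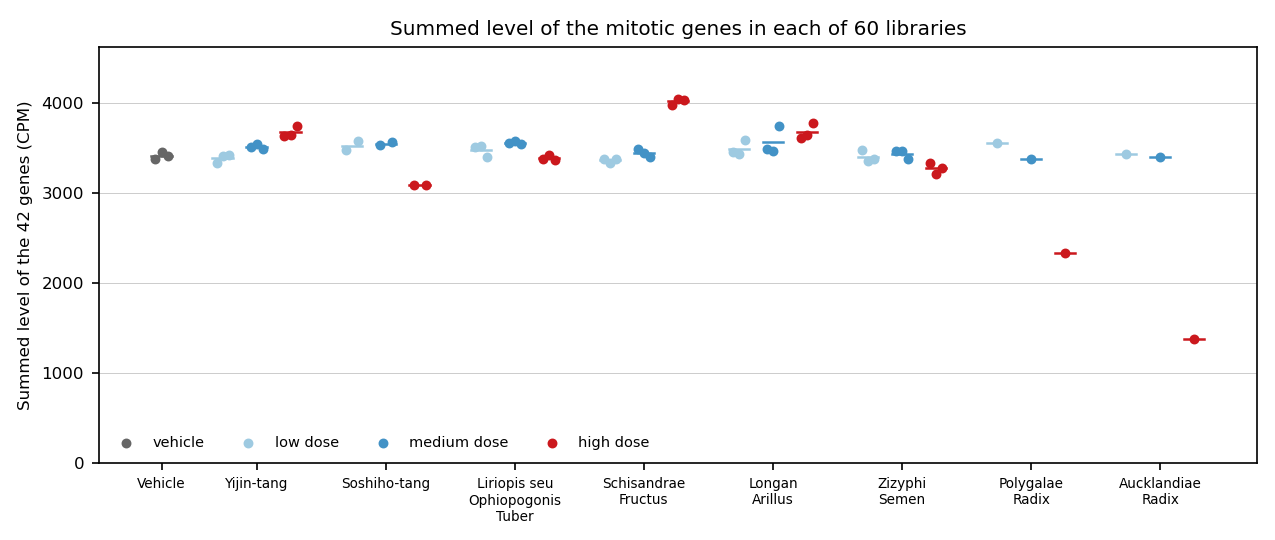
Summed level of the 42 mitotic genes in CPM (y axis, from 0) in each of the 60 libraries (points) by extract and dose, with a bar at each group mean. The 3 high-dose libraries of Schisandrae Fructus lie at 3980 to 4040, above all others, and the single high-dose library of Aucklandiae Radix lies lowest at 1380.

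At the high dose of Soshiho-tang 23 of the 42 genes fell against the low dose and none rose (edgeR's quasi-likelihood test, Benjamini-Hochberg adjusted p under 0.05, n = 2 against 2). Of all genes tested 8.66% fell and 9.92% rose. The median change of the 42 was -0.17 on the log2 scale, against 0 for all genes, and 37 lay below 0. In 28 of them both high-dose libraries were below both low-dose libraries, which holds for 30.3% of all genes, and in 3 both were above (31.8%).

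The fall was largest for KIF20A, a kinesin that carries regulators to the central spindle for cytokinesis: 80 and 79.9 CPM at the high dose, 128 and 124 CPM at the low dose, and 124 and 123 CPM at the medium dose. Both high-dose libraries lay far below the other 4, a change of -0.66 ± 0.05 (log2, SE; adjusted p = 8.91e-14) or 1.58-fold. It was the only one of the 42 genes to change by more than 1.5-fold here.

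Among the kinases and cyclins of mitotic entry 7 of 8 fell, with a median of -0.3. CCNA2, cyclin A2, which drives S phase and entry into mitosis, stood at 54.9 and 58.0 CPM against 73.6 and 78.4 (-0.43 ± 0.06, adjusted p = 7.17e-08). PLK1, the kinase that matures centrosomes and recruits the cytokinesis machinery, stood at 127 and 126 against 159 and 166 CPM (-0.37 ± 0.05, adjusted p = 9.13e-08). AURKA, the centrosomal Aurora kinase, stood at 106 and 98.3 against 126 and 125 CPM (-0.3 ± 0.05, adjusted p = 1.91e-05). The groups did not overlap for any of these 3 genes. CDK1, the kinase partner of cyclins A and B, fell by 0.31 (adjusted p = 0.00448), CCNB1, cyclin B1, by 0.2 (0.0181), CCNB2 by 0.27 and NEK2, a centrosome-separating kinase, by 0.34. CDC25C, the phosphatase that activates CDK1, did not pass (-0.06).

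Of the 8 spindle assembly genes and motors 5 fell. NUSAP1, which bundles spindle microtubules, stood at 73.8 and 75.2 CPM against 95.2 and 91.9 (-0.33 ± 0.05, adjusted p = 2.78e-06). DLGAP5, a stabiliser of kinetochore fibres, KIF11, the kinesin that pushes the poles apart, TPX2, the activator of AURKA, and KIF4A, a chromosome-arm kinesin, fell by 0.29, 0.26, 0.17 and 0.16. KIF2C, a microtubule-depolymerising kinesin at centromeres, had 77.4 and 75.1 CPM against 78.8 and 79.9, a change of -0.06 that did not pass.

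Of 9 kinetochore and checkpoint genes 3 fell: NDC80, which binds microtubules at the kinetochore, by 0.3, and the checkpoint kinases BUB1 and BUB1B by 0.18 and 0.21. BUB1 had 53.2 and 55.7 CPM against 59.7 and 63.3. BUB3, their partner, had 132 and 128 CPM against 118 and 123, with both high-dose libraries above both low-dose ones, but did not pass (0.11, adjusted p = 0.163). Of the 4 passenger complex genes BIRC5 (survivin) had 109 and 112 CPM against 133 and 137 and fell by 0.29 (adjusted p = 0.00686), and CDCA8 (borealin) fell by 0.23. The kinase of that complex, AURKB, had 47.0 and 44.1 CPM against 46.8 and 47.7 and did not pass (-0.05).

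The condensin subunits NCAPG and NCAPH fell by 0.3 and 0.23, while CDCA5 (sororin, a protector of cohesin), ESPL1 and PTTG1 did not pass. CDCA3, which promotes the breakdown of the mitosis inhibitor WEE1, had 27.1 and 28.0 CPM against 36.5 and 37.6 (-0.43 ± 0.08, adjusted p = 8.47e-05). CDC20 had 204 and 198 CPM against 231 and 240 and fell by 0.23 (adjusted p = 0.0122). PRC1, which bundles the antiparallel microtubules of the central spindle, fell by 0.16, and KIF23, KIF14 and CEP55 did not pass. Without Soshiho-tang low replicate 3 the count was 13, and 11 genes kept their call without each of the 4 libraries in turn: AURKA, CCNA2, CDCA3, CDCA8, DLGAP5, KIF11, KIF20A, NCAPG, NEK2, NUSAP1 and PLK1. Each of these fits leaves 1 library at a dose, which is assumed to vary like the other groups. With no filter on low counts 15 fell.

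Other genes of the division cycle changed in the same libraries. Of 120 further genes in 9 lists, 27 fell and 9 rose at the high dose of Soshiho-tang. In the replication and S phase list 8 of 12 fell, led by MCM3 (-0.36, adjusted p = 3.05e-07) and MCM4 (-0.29), helicase subunits of the replication origin, and 1 rose. Of the 8 cell cycle inhibitors 4 rose and 1 fell: CDKN1A (p21) rose by 1.01 (adjusted p = 3.78e-10), GADD45A, a stress-induced inhibitor of CDK1, by 1.39, and CDKN2C (p18) fell by 0.99. Among factors that transcribe mitotic genes 3 of 11 fell, with TFDP1 (-0.29) and RBBP4 (-0.2) first, and 1 rose; FOXM1 (-0.08) and MYBL2 (-0.02) did not pass.
Of the 16 outer kinetochore genes 5 fell and 1 rose, with ZWINT (-0.42) and SPDL1 (-0.36) first. The inner kinetochore list had 1 of 16 falling, CENPO (-0.19). Of 15 condensin and cohesin genes 3 fell, led by NCAPD2 (-0.37) and PDS5B (-0.34), and of 16 anaphase-promoting complex genes 1 rose, CDC16 (0.21). Of 16 other spindle and cytokinesis genes 3 fell, led by FAM83D (-0.42) and KIF18B (-0.3), and of 10 entry brakes and partners 3 fell, led by CDC25B (-0.41) and GTSE1 (-0.25), and 1 rose. The 7 fibroblast and mesenchymal markers, collagens included, summed to 2470 to 2590 CPM at the high and 5480 to 5590 at the low dose. The 3 epithelial markers summed to 63.8 to 69.8 against 124 to 126 CPM. Nearly all of the epithelial sum was KRT18, as EPCAM and CDH1 stayed at or below 0.246 CPM in every library. The part of these sums in the result was not tested.

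The high dose of Schisandrae Fructus changed most of the 42 genes: 32 rose and 4 fell against the low dose (n = 3 against 3). In this comparison 22.3% of all genes rose and 23.6% fell. The median change was 0.27 (log2) against 0 for all genes. In 33 genes all 3 high-dose libraries lay above all 3 low-dose libraries, which holds for 27.1% of all genes, and in 3 they lay below (27.9%).

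Checkpoint and kinetochore genes were among the largest rises, and 8 of 9 passed. BUB3 had 179, 181 and 181 CPM against 120, 120 and 121 (0.58 ± 0.04, adjusted p = 5.51e-15). BUB1 had 89.8, 90.2 and 86.3 against 60.4, 57.1 and 60.9 CPM (0.57 ± 0.05, adjusted p = 7.38e-13). High and low libraries were far apart in both, and the medium dose of BUB3, at 125, 123 and 125 CPM, stayed close to the low dose. MAD2L1, the checkpoint protein that inhibits CDC20, rose by 0.5, SGO1 (shugoshin, which protects centromeric cohesin) by 0.46, NUF2 and NDC80, partners in the same kinetochore complex, by 0.32 and 0.21, CENPA, the centromeric histone, by 0.27, and the checkpoint kinase TTK by 0.13. BUB1B did not pass (0.09, adjusted p = 0.138).

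Of the 8 entry kinases and cyclins 7 rose. CCNA2 had 104, 96.2 and 97.3 CPM against 72.3, 72.1 and 76.3 (0.43 ± 0.05, adjusted p = 1.47e-10). CDC25C had 30.0, 29.3 and 26.8 against 19.1, 19 and 20.2 CPM (0.56 ± 0.06, adjusted p = 2.54e-10). CDK1, PLK1, AURKA, CCNB2 and NEK2 rose by 0.26, 0.18, 0.16, 0.45 and 0.34. CDK1 had 70.9, 64.7 and 66.1 CPM against 58.7, 57.3 and 51.1, and PLK1 had 178, 177 and 171 against 154, 151 and 156. CCNB1, at 171, 176 and 172 CPM against 175, 160 and 157, overlapped between doses and did not pass (0.07).

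KIF2C led the spindle genes, with 103, 106 and 108 CPM against 75.1, 74.9 and 74.6 (0.49 ± 0.04, adjusted p = 7.7e-15). Of the 8 genes in that role 5 rose and 2 fell: KIF18A, a kinesin that limits chromosome movements, fell by 0.26 (adjusted p = 4.14e-05), with 38.0, 34.4 and 36.1 against 43.8, 43 and 42.2 CPM, and KIF11 fell by 0.14. The condensin subunits fell as well, NCAPG by 0.36 and NCAPH by 0.15, while PTTG1 (0.6) and CDCA5 (0.22) rose and ESPL1 did not pass. NCAPG had 37.9, 35.1 and 36.7 CPM against 46.3, 46.9 and 46.8, so its groups did not overlap.

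AURKB rose by 0.56, with 59.0, 67.0 and 68.0 CPM against 41.5, 45.3 and 44.5, and its partners BIRC5 and INCENP rose by 0.28 and 0.22. BIRC5 had 145, 160 and 166 against 131, 126 and 128 CPM. All 5 central spindle and cytokinesis genes rose, among them KIF20A with 159, 158 and 156 against 121, 118 and 128 CPM (0.36 ± 0.04, adjusted p = 9.76e-10), and UBE2C (0.51) and CDCA3 (0.37) rose too. CDC20, with 244, 258 and 250 against 225, 234 and 228 CPM, did not overlap but missed the threshold (0.13, adjusted p = 0.0562). Without each of the 6 libraries in turn 32 of the 36 calls were kept; those of HMMR, TTK, KIF11 and NCAPH were lost in at least 1 case.

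Of the 120 further genes 31 rose and 37 fell, with a median change of 0, where 22.3% of all genes rose and 23.6% fell. The counts in the single lists are to be read beside these shares. In the replication and S phase list 11 of 12 fell and none rose, led by MCM3 (-0.83, adjusted p = 3.21e-20) and TYMS, thymidylate synthase (-0.68), while 10 of 16 other spindle and cytokinesis genes rose and none fell, led by SPAG5 (0.51) and KIF18B (0.32). Among transcription factors of mitotic genes 5 of 11 fell, led by RBBP4 (-0.53) and TFDP1 (-0.52), with FOXM1 (-0.17, adjusted p = 0.00465) and MYBL2 (-0.36, adjusted p = 6.21e-05) among them, and 2 rose. Inhibitors split, 3 rising and 3 falling: GADD45A rose by 0.81, CDKN2C fell by 0.76 and CDKN1A did not pass (-0.11, adjusted p = 0.327).
Marker sums also differed between doses of Schisandrae Fructus: the 4 neuron markers summed to 22.8 to 27.5 CPM at the high and 51.2 to 54.7 at the low dose, the 3 epithelial markers to 59.1 to 76.1 against 102 to 117, the 4 oligodendrocyte markers to 9.44 to 9.91 against 5.25 to 6.1 and the 4 leukocyte and microglia markers to 255 to 266 against 209 to 219. The epithelial, oligodendrocyte and leukocyte sums came mostly from KRT18, MBP and CD68, with medians of 116, 6.14 and 208 CPM over all libraries. The neuron sum came mostly from SYT1 and SNAP25, with medians of 21.7 and 28.6 CPM. The part of these sums in the result was not tested.
Within the kinetochore lists HJURP, the chaperone of CENPA, rose by 0.73, CENPP fell by 0.4, and ZWINT and NSL1 fell by 0.55 and 0.61; in all 3 of 16 inner genes rose and 5 fell, and 3 of 16 outer genes rose and 6 fell. NCAPD2 rose by 0.37 and SMC2 fell by 0.27 among 15 condensin and cohesin genes (2 rose, 3 fell). UBE2S (0.88) and ANAPC10 (0.57) led the 5 of 16 anaphase-promoting complex genes that rose, and 3 fell. CKS1B (0.44) and GTSE1 (0.2) led the 3 of 10 entry partners that rose, and 1 fell.

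**Figure D3:**
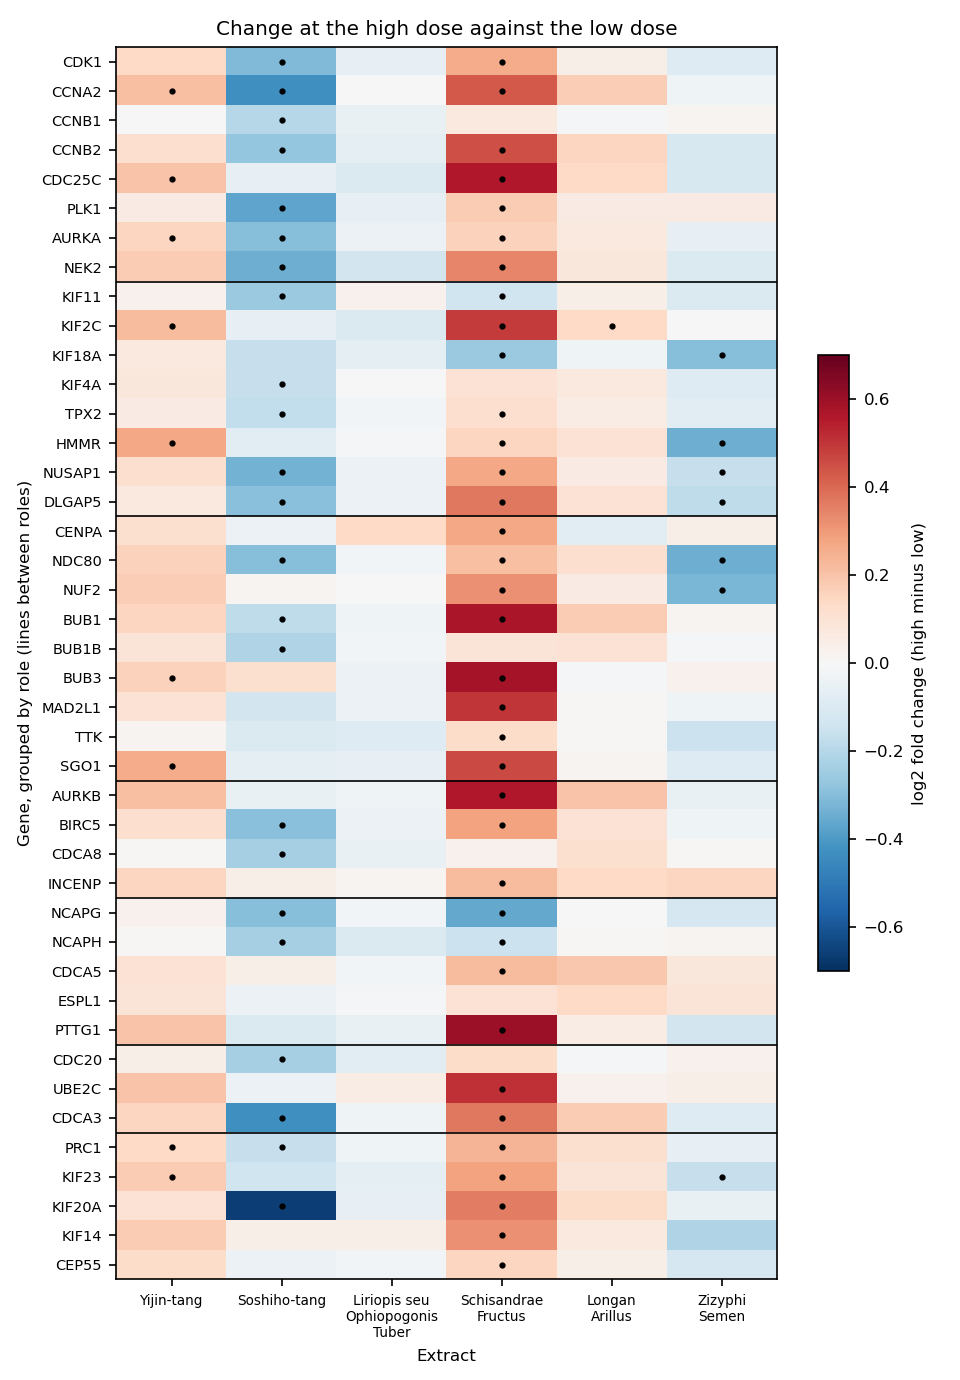
Change of each of the 42 genes (rows, grouped by role) at the high dose against the low dose of 6 extracts (columns), as log2 fold change in colour (red higher, blue lower); a dot marks an adjusted p under 0.05. The Soshiho-tang column holds 23 dots, all on falls, and the Schisandrae Fructus column 36 dots, of which 4 are on falls.

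Of the 23 genes that fell with Soshiho-tang 15 (65.2%) were among the 32 that rose with Schisandrae Fructus, 46.9% of those. Both shares lie below those over all 42 genes, of which 76.2% rose with Schisandrae Fructus and 54.8% fell with Soshiho-tang. These extracts have their own low-dose libraries but differ in dose. Over all 6 extracts 18 genes were called in both directions, 1 gene (ESPL1) was called in none, and none in more than 3.

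Yijin-tang, given at the same doses as Soshiho-tang and in the same set by library name, raised 9 of the 42 genes at the high dose and lowered none (n = 3 against 3), where 3.61% of all genes rose and 3.39% fell. The changes were small, with a median of 0.13 and a highest value of 0.27, and 41 of 42 lay above 0; against the vehicle 30 did. In 29 genes all high-dose libraries were above all low-dose libraries (14.5% of all genes) and in 0 they were below (14.2%). KIF2C had 86.0, 89.6 and 91.4 CPM against 78.4, 76.3 and 74.9 (0.22 ± 0.04, adjusted p = 5.33e-05). CCNA2 had 84.6, 85.7 and 85.4 CPM against 70.3, 73.1 and 76.7 (0.21 ± 0.05, adjusted p = 0.00118). HMMR, a microtubule-binding protein of the spindle poles, had 112, 109 and 128 CPM against 96.0, 99.2 and 94.9 (0.27 ± 0.06, adjusted p = 0.00297). In each of the 3 genes the groups were separate, and replicate 3 was the highest for HMMR and KIF2C.

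PRC1 had 160, 161 and 165 CPM against 145, 149 and 145 (0.14 ± 0.04, adjusted p = 0.00866). KIF23, the kinesin that with its partner forms centralspindlin, had 105, 105 and 114 against 95.4, 92.7 and 98.1 CPM (0.18 ± 0.05, adjusted p = 0.00888). BUB3 had 135, 137 and 128 against 118, 121 and 117 CPM (0.16 ± 0.04, adjusted p = 0.0126). These groups did not overlap either, and AURKA (0.15), SGO1 (0.26) and CDC25C (0.2) were the other genes that rose. CDK1, CCNB1, PLK1, AURKB, BUB1, CDC20, KIF20A and BIRC5 did not pass, with changes from 0 for CCNB1 to 0.21 for AURKB. KIF20A had 133, 133 and 139 CPM against 129, 124 and 125.

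The count depended on single libraries. It was 3 without Yijin-tang high replicate 3 and 5 without Yijin-tang low replicate 1; it was 15 without Longan Arillus medium replicate 3, which enters only through the spread estimated over all groups. Only CCNA2 and KIF2C kept their calls without each of the 6 libraries in turn. Among the 120 further genes 11 rose and 2 fell. HJURP (0.41, adjusted p = 1.49e-06) was the 1 inner kinetochore gene, SPDL1 rose by 0.18 and SKA2 fell by 0.28 in the outer kinetochore list (1 rose, 2 fell), and 4 of 16 other spindle genes rose, led by CKAP2 (0.24) and SPAG5 (0.2).
MASTL, a kinase that keeps mitotic phosphorylation in place, rose by 0.34 and CDC25A by 0.21. CDC6 (0.23) and RRM2 (0.2) rose in the replication list and GADD45A (0.31) among inhibitors. No condensin, cohesin or anaphase-promoting complex gene and no factor that transcribes mitotic genes passed, with FOXM1 and MYBL2 both at 0.04, and CDKN1A stood at -0.08.

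The difference between both decoctions was tested directly as the high-against-low change of Soshiho-tang minus that of Yijin-tang. It was lower in 24 of the 42 genes and higher in none, where 4.3% of all genes were lower and 5.1% higher. All 42 differences lay below 0, with a median of -0.28. KIF20A differed by -0.76 ± 0.07 (adjusted p = 7.03e-12) and CCNA2 by -0.65 ± 0.07 (adjusted p = 5.59e-09). CDK1 (-0.45), PLK1 (-0.43), AURKA (-0.45), BUB1 (-0.33), BIRC5 (-0.41) and CDC20 (-0.28) passed, as did KIF2C (-0.28) and HMMR (-0.34), which had not fallen with Soshiho-tang alone.

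**Figure D4:**
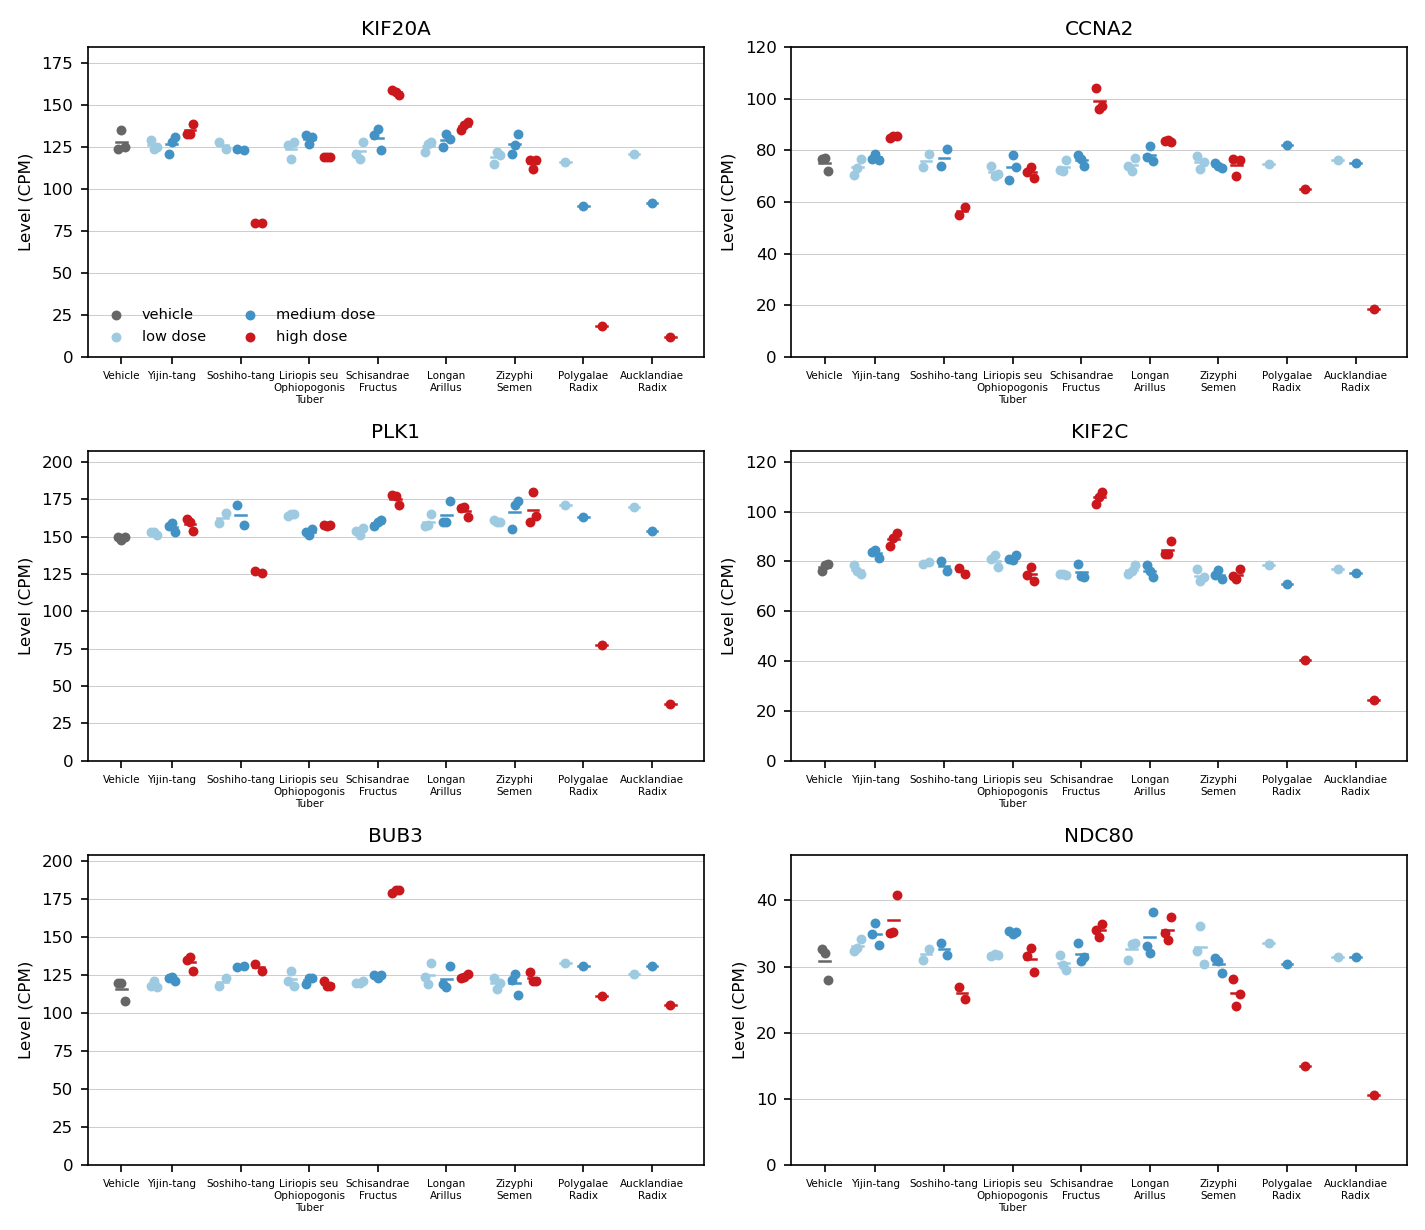
Levels of KIF20A, CCNA2, PLK1, KIF2C, BUB3 and NDC80 in CPM (y axes, from 0) in every library (points) by extract and dose, with bars at group means. KIF20A lies at 80 and 79.9 CPM in the high-dose Soshiho-tang libraries and at 156 to 159 CPM in those of Schisandrae Fructus, and lowest in the high-dose libraries of Polygalae Radix (18.4) and Aucklandiae Radix (11.8).

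Zizyphi Semen at the high dose lowered 7 of the 42 genes and raised none (n = 3 against 3), where 3.76% of all genes fell and 2.02% rose. The median change was -0.07, and 29 genes lay below 0. In 10 all high-dose libraries were below all low-dose libraries and in 0 above, against 10.6% of all genes each way. The 7 were mainly spindle and kinetochore genes: KIF18A had 37.2, 34.4 and 35.3 CPM against 43.8, 43.3 and 44.0 (-0.3 ± 0.05, adjusted p = 7.02e-05). HMMR had 86.3, 73.3 and 68.9 CPM against 103, 94.7 and 90.4 (-0.34 ± 0.06, adjusted p = 0.000244). NDC80 had 28.1, 24.0 and 25.8 CPM against 32.3, 36.1 and 30.4 (-0.34 ± 0.07, adjusted p = 0.000746). The groups were separate in all 3 genes.

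NUF2, the partner of NDC80, had 22.1, 18.5 and 22.9 CPM against 28.8, 23.6 and 26.7 (-0.32 ± 0.07, adjusted p = 0.0035). NUSAP1 had 85.8, 86.9 and 80.6 CPM against 98.8, 92.6 and 90.6 (-0.16 ± 0.04, adjusted p = 0.0129). DLGAP5 had 79.6, 74.0 and 72.2 CPM against 86.2, 85.5 and 83.8 (-0.18 ± 0.05, adjusted p = 0.0158). No high-dose library reached the low-dose range in these 3 genes, and KIF23 fell by 0.16. None of the 8 entry kinases and cyclins passed: CDK1 stood at -0.09, CCNB1 at 0.02, PLK1 at 0.06 and AURKA at -0.06. AURKB (-0.05), BUB1 (0.02), CDC20 (0.03), KIF20A (-0.05) and BIRC5 (-0.03) did not pass either.

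Base composition moved with this result. Across the 42 genes the change had a Spearman correlation of 0.71 with the GC content of the transcript, against 0.02 across all 17716 genes with a value, a description over genes that share the same libraries. The 7 genes that fell had a median GC content of 38.8%, and the 35 others 46.6%. With transcript length the correlation was -0.02 across the 42 genes and 0.21 across all genes. The correction given next takes length and GC content together, so their separate parts were not tested. With offsets corrected for length and GC content KIF18A (-0.23), HMMR (-0.26), NDC80 (-0.25) and NUF2 (-0.21) still fell, while NUSAP1 (-0.09), DLGAP5 (-0.1) and KIF23 (-0.12) did not pass. KIF18A, HMMR and NDC80 kept their calls without each of the 6 libraries in turn; the count was 4 without Zizyphi Semen low replicate 1, high replicate 2 or high replicate 3, and 3 in a fit of the compared libraries alone.
Of the 120 further genes 7 fell and none rose: KIF20B, a cytokinesis kinesin, fell by 1.04 (adjusted p = 7.49e-11), the condensin and cohesin ATPases SMC4 and SMC3 by 0.53 and 0.52 (3 of 15 in that list), CENPC and CENPU by 0.39 and 0.25, and SPDL1 by 0.23. FOXM1 (0.12), MYBL2 (0.1) and CDKN1A (-0.04) did not pass.

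Longan Arillus was in the same set by library name and at the same doses as Zizyphi Semen. KIF2C was the one gene of the 42 that rose at the high dose, with 83.1, 83.0 and 88.0 CPM against 75.0, 76.3 and 78.5 (0.14 ± 0.04, adjusted p = 0.0442). Of all genes 0.342% rose and 0.594% fell. The groups did not overlap, but the call was lost without each of the 6 libraries in turn. CDCA5 had 53.3, 59.4 and 58.3 CPM against 48.3, 50.1 and 51.1 (0.19 ± 0.05, adjusted p = 0.0505). CCNA2 had 83.8, 83.9 and 83.2 CPM against 73.9, 72.1 and 77.1 (0.17 ± 0.05, adjusted p = 0.0612). Both had separate groups and missed the threshold.

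The median of the 42 was 0.07, 36 lay above 0, and 13 had all high-dose libraries above all low-dose libraries (7.36% of all genes) with 0 below (7.58%). BUB1 (0.18, adjusted p = 0.0664), AURKB (0.2) and KIF20A (0.13) did not pass, nor did CDK1 (0.04), CCNB1 (-0.01), PLK1 (0.06), AURKA (0.07), CDC20 (-0.01) and BIRC5 (0.1). Of the 120 further genes 2 rose, HJURP (0.26) and CDKN1B (p27, 0.2). FOXM1 (0.01), MYBL2 (-0.04) and CDKN1A (0.02) did not pass.

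The change with Longan Arillus minus that with Zizyphi Semen was higher in 7 of the 42 genes and lower in none, where 2.55% of all genes were higher and 1.41% lower. The 7 were HMMR (0.44 ± 0.09, adjusted p = 0.00109), NDC80 (0.46 ± 0.1, adjusted p = 0.00164), DLGAP5, KIF23, KIF18A, NUSAP1 and NUF2, the 7 genes that fell with Zizyphi Semen, whose libraries enter both results. Without Zizyphi Semen high replicate 2, or without Longan Arillus high replicate 3, 4 passed. Without Longan Arillus medium replicate 3, 12 passed, and in a fit of the compared libraries alone 0 passed.

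For Liriopis seu Ophiopogonis Tuber no gene of the 42 passed at the high dose with edgeR or DESeq2. Of all genes 0% rose and 0% fell. An unadjusted p under 0.05 was found for 463 of the 17851 genes tested and for 2 of the 42. The changes lay between -0.13 and 0.14, with a 95% interval of at most ± 0.21, and 36 were below 0; against the vehicle 23 were. KIF2C had 74.7, 77.6 and 72.0 CPM against 80.9, 82.5 and 77.6 (-0.1). NEK2 had 28.8, 26.6 and 24.7 against 30.5, 29.7 and 27.5 CPM (-0.13), and CENPA 22.0, 21.0 and 20.7 against 18.7, 20.7 and 18.7 (0.14), and all 3 had an adjusted p of 1. The groups overlapped for KIF2C and NEK2; for CENPA the nearest libraries of both doses were equal at 20.7 CPM to 3 digits. KIF20A stood at 119 CPM in all 3 high-dose libraries against 126, 118 and 128 (-0.06). CDK1 (-0.06), CCNB1 (-0.05), PLK1 (-0.06), AURKA (-0.04), AURKB (-0.03), BUB1 (-0.03), CDC20 (-0.08) and BIRC5 (-0.04) did not pass, and none of the 120 further genes did, with FOXM1 at -0.02, MYBL2 at -0.06 and CDKN1A at -0.03.

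At the medium dose none of the 42 genes passed for any of the 6 extracts with edgeR or DESeq2. The share of all genes called in either direction was 0.0224% for Yijin-tang, 0.0112% for Soshiho-tang, 0% for Liriopis seu Ophiopogonis Tuber, 0.0392% for Schisandrae Fructus, 0% for Longan Arillus and 0% for Zizyphi Semen. In that order 915, 469, 1300, 832, 1022 and 679 of the 17851 genes tested had an unadjusted p under 0.05. Of the 42 genes 3, 1, 5, 3, 2 and 1 did. The medians lay between 0 (Zizyphi Semen) and 0.05 (Yijin-tang). For KIF20A with Soshiho-tang the medium-dose libraries, at 124 and 123 CPM, lay at the level of the low dose.

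Aucklandiae Radix at 160 µg/mL had 1 library, so its differences have no replicate check. All 42 genes lay below the range of the 3 vehicle libraries, and 31 were at least 2-fold lower, where 7.27% of all genes were past 2-fold in either direction. Of the 17851 genes tested 849 were past 2-fold lower. How many of all genes lay outside the vehicle range was not counted. Many of the 42 lay outside it at the lower doses too: 18 below and 17 above at 32 µg/mL, and 17 below and 12 above at 6.4 µg/mL. The median was -1.43 (log2) against 0.01 for all genes. KIF20A had 11.8 CPM against 124, 135 and 125 CPM in the vehicle libraries (-3.43). CCNA2 had 18.4 against 76.5, 76.9 and 71.9 CPM (-2.03), and KIF14 13.0 against 46.5, 52.6 and 55.2 (-1.98). PLK1 had 38.3 against 150, 148 and 150 CPM (-1.96) and BUB1B 13.5 against 48.2, 56.1 and 53.8 (-1.95).

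Genes past 2-fold lower were found in every role in that library. They were all 8 entry kinases and cyclins, 7 of 8 spindle genes and 5 of 9 kinetochore and checkpoint genes. Past 2-fold were also 3 of 4 passenger genes, 3 of 5 condensation and cohesion genes and 4 of 5 cytokinesis genes. In the role listed as anaphase-promoting complex and exit 1 of 3 was, CDCA3, with 10.1 CPM against 33, 31.1 and 29.7. UBE2C, with 53.9 CPM against 76.8, 72.1 and 67.3, was not. CDK1 had 20.6 CPM (-1.53), CCNB1 68.2 (-1.29), AURKA 47.5 (-1.31), AURKB 17.5 (-1.14) and BUB1 21.5 (-1.59). CDC20, at 112 CPM (-0.99), and BIRC5, at 64.6 (-0.96), did not reach 2-fold. BUB3, at 105 CPM against 120, 120 and 108, was closest to the vehicle (-0.14).
Beyond the 42 genes, 13 of 16 other spindle and cytokinesis genes were past 2-fold lower, ASPM (13.4 against a vehicle mean of 146 CPM) and KIF15 (5.52 against 26.0) first, and 1 of 12 replication genes was, RRM2 (-1.23). Of 16 outer kinetochore genes 2 were, KNL1 (-2.32) and SPDL1 (-1.17), of 15 condensin and cohesin genes 5, with NCAPD2 (-2.3) and SMC1A (-1.28) first, and of 16 inner kinetochore genes 2, CENPI (-1.38) and HJURP (-1.22). Of 8 cell cycle inhibitors 2 were past 2-fold higher and 1 lower, with a median of 0.09. The 2 were CDKN1A, with 91.3 CPM against a vehicle mean of 21.7 (2.07), and GADD45A, with 139 against 49.9 (1.47). Among 11 factors that transcribe mitotic genes 1 was past 2-fold lower, FOXM1, with 82.8 against 209 (-1.34). In that list 1 was higher, LIN37, with 15.7 against 6.54 (1.26), and MYBL2 had 24.7 against 41.9 (-0.76). The 7 fibroblast and mesenchymal markers summed to 1980 CPM against 5890 to 6130 in the vehicle libraries, and the mitochondrial share of counts was 10.1% against 11.6 to 11.9%; their part in the result was not tested.

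Against the low-dose library of Aucklandiae Radix none of the 42 genes changed sign, and the median was -1.42.

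At 32 and 6.4 µg/mL of Aucklandiae Radix no gene of the 42 was past 2-fold, where 1.47% and 0.23% of all genes were. The medians were 0 and -0.02. KIF20A had 91.6 CPM at 32 µg/mL, below all vehicle libraries (-0.48), and 121 CPM at 6.4 µg/mL.

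Polygalae Radix at 30 µg/mL, also 1 library, had 7 genes past 2-fold lower and 1 higher, where 11% of all genes were past 2-fold in either direction. KIF20A had 18.4 CPM (-2.79), DLGAP5 27.6 against 92.4, 97.9 and 99.4 CPM (-1.81), and CDC20 68.2 against 225, 223 and 215 (-1.7). HMMR had 31.9 against 85.0, 94.5 and 96.0 CPM (-1.52) and KIF4A 39.1 against 94.4, 97.2 and 101 (-1.32). NDC80 (-1.03) and TPX2 (-1.02) were the others, and CDCA5, at 109 CPM against 48.9, 45.7 and 49.2, was the one gene past 2-fold higher (1.18). Against the low-dose library of the same extract, which is in the same set by library name, CDCA5 was below 2-fold (0.93), and KIF20A (-2.66), DLGAP5 (-1.67) and CDC20 (-1.86) remained past it.

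Against the vehicle, none of the 8 entry kinases and cyclins was past 2-fold in the Polygalae Radix library. Their median was -0.5, and 6 lay below the vehicle range. CDK1 had 59.7 CPM, within the vehicle range of 58.5 to 61.3, and AURKA 127 CPM (0.1), whereas CCNB1 had 91.5 (-0.87) and PLK1 77.2 (-0.95). AURKB had 47.4 CPM (0.29), BUB1 32.8 (-0.99) and BIRC5 103 (-0.29), and SGO1 35.0 against 20.3, 19.7 and 20.9 (0.79). Against the low-dose library 4 genes changed sign: AURKA (-0.12), AURKB (-0.3), UBE2C (-0.01, 0.36 against the vehicle) and KIF14 (0.35, -0.1 against the vehicle). In that comparison PLK1 was more than 2-fold lower (-1.15) and the other entry kinases and cyclins were not, and PTTG1 also passed 2-fold (-1.15). Against the vehicle the median of the 42 was -0.57, with 0.03 for all genes, and 30 lay below and 7 above its range. At 1.2 µg/mL 14 of the 42 lay below and 19 above that range. How many of all genes lay outside it was not counted. At 1.5-fold the count at 30 µg/mL was 21, given without the share of all genes.
This library had the highest mitochondrial share of counts (20.3% against 10.1 to 16.8% elsewhere) and a scaling factor of 1.217. The astroglial markers summed to 733 CPM against 4850 to 4910 in the vehicle libraries. Most of that sum was VIM, whose lowest level in any library was 634 CPM. The fibroblast and mesenchymal markers summed to 979 against 5890 to 6130 CPM. The part of these sums in the result was not tested. Other division genes moved both ways: SMC2 (-1.83), NCAPD2 (-1.8), CKAP5 (-1.41), ANLN (-1.41), MCM6 (-1.38), MCM2 (-1.23) and PMF1 (-1.15) were past 2-fold lower, and WEE1, the kinase that inhibits CDK1 (1.35), MASTL (1.12), LIN52 (1.07) and LIN37 (1.05), both subunits of MuvB, and CENPL (1.05) higher. FOXM1 (0.03), MYBL2 (0.12) and CDKN1A (0.69) were not.

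At 6 and 1.2 µg/mL of Polygalae Radix none of the 42 was past 2-fold, where 0.616% and 0.762% of all genes were. KIF20A had 89.9 CPM at 6 µg/mL (-0.51) and 116 CPM at 1.2 µg/mL (-0.14). The medians of the 42 were 0.02 at both doses.

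**Figure D5:**
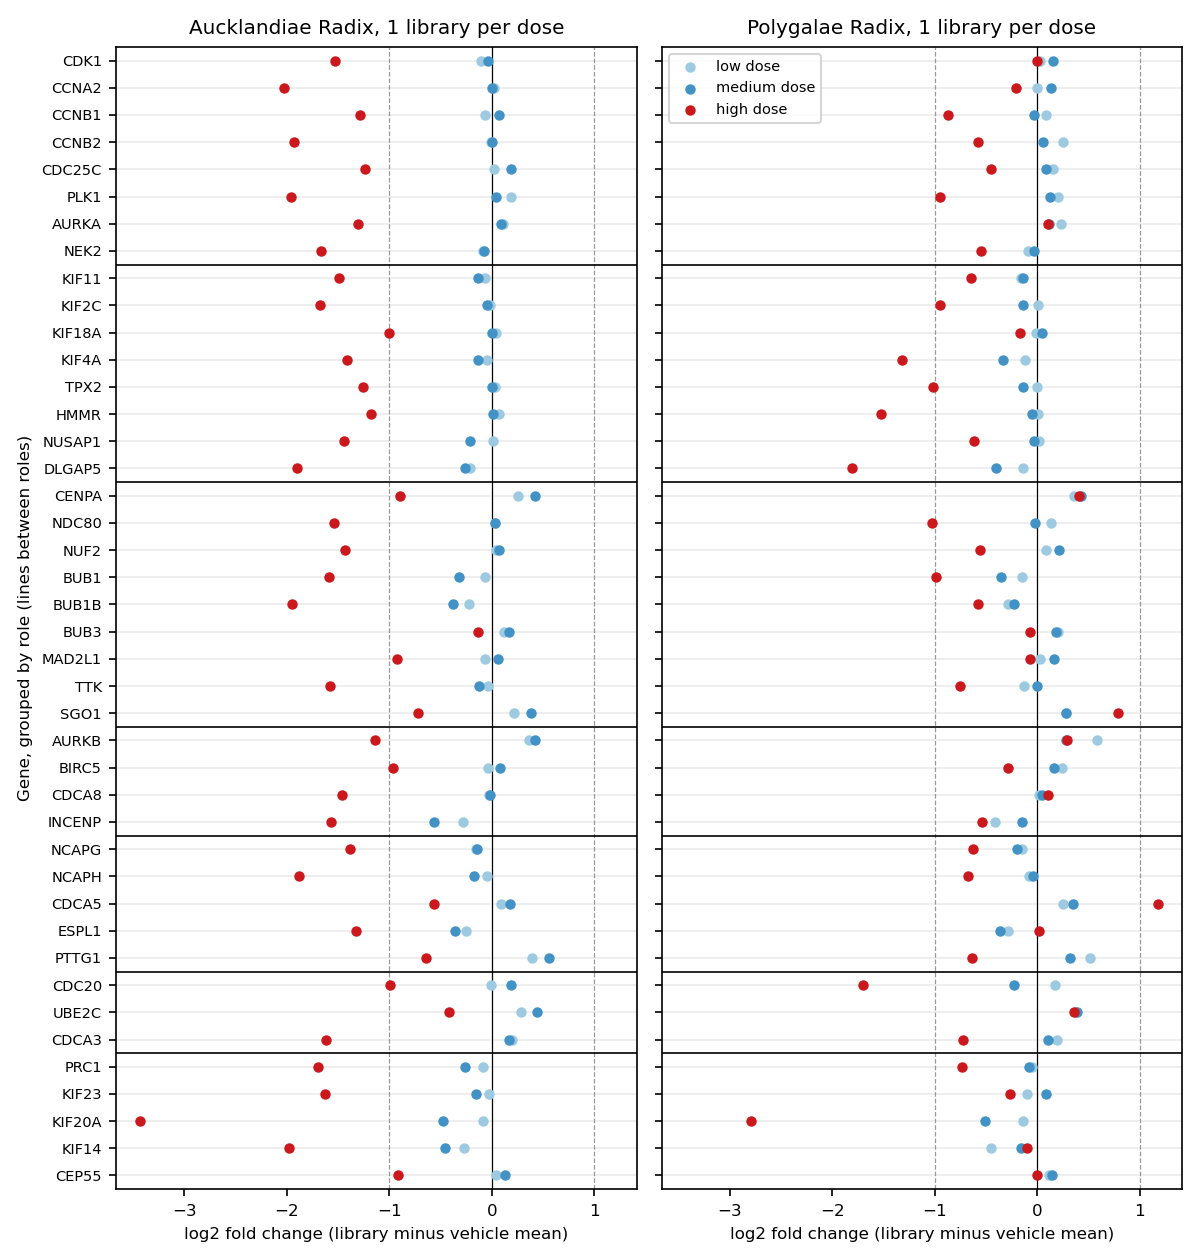
Level of each of the 42 genes (rows, grouped by role) in the single libraries of Aucklandiae Radix (left) and Polygalae Radix (right) as log2 fold change against the vehicle mean (x axis, the same on both sides); dashed lines mark 2-fold. At the high dose (red) all 42 genes lie below 0 for Aucklandiae Radix, whereas for Polygalae Radix they spread from -2.79 (KIF20A) to 1.18 (CDCA5).

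Genes with and without TTTGAA or TTTAAA can be set side by side, 29 against 7 genes, as medians with no test. They were -1.49 and -1.24 in the high-dose Aucklandiae Radix library, -0.2 and -0.07 with Soshiho-tang, 0.22 and 0.46 with Schisandrae Fructus, 0.11 and 0.2 with Yijin-tang and -0.09 and -0.05 with Zizyphi Semen. KIF20A and CCNA2, whose promoters are printed above, had the 2 lowest values in the Aucklandiae Radix library (-3.43 and -2.03). Their values with Soshiho-tang were -0.66 and -0.43. The CCNA2 promoter holds neither TTTGAA nor TTTAAA, and other spellings of the CHR were not searched.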

How the data were processed

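Expected counts per gene were deposited by the authors for 60 libraries. Per the submitters' processing notes, reads were handled with FastQC 0.11.9, Trim Galore 0.6.5, STAR 2.7.3a and RSEM 1.3.3 on hg38; the sources used here give neither annotation release nor strand setting, so overlapping antisense genes cannot be told apart. Of the values 10.86% were not whole, and all were rounded. The 42 genes, the other lists and the tests were chosen with earlier results of these data known. One model was fitted with edgeR 4.0.16 (R 4.3.3) to the 54 libraries in 19 groups with replicates: default expression filter (17851 genes), trimmed-mean scaling, quasi-likelihood test with 35 residual degrees of freedom, Benjamini-Hochberg adjustment over all genes, threshold 0.05; the SE is the size of the log2 fold change divided by the square root of F. In 1-library groups a gene was counted when it lay outside the vehicle range, differed 2-fold or more from the mean of those libraries and reached 10 CPM in either (prior count 2). The script was tested on simulated data.

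Named with values in every library were up to 6 genes with the lowest adjusted p per high-dose comparison (3 where fewer than 3 passed), 9 followed in every group, up to 5 per single library past 2-fold, and up to 2 per other list. Gene lengths are those of the longest coding transcript in GENCODE release 29, and 57055 of the identifiers matched a symbol. Alternatives were DESeq2 1.42.0 (test and size factors), no filter, a replicate block, a length and GC correction, fewer libraries in the fit, the vehicle as reference and each library left out. Whether replicate numbers pair the libraries was read from the correlation of same-numbered deviations, where doses had 3 such pairs. Every pair was over 0.1 only between medium and low doses, for Liriopis seu Ophiopogonis Tuber (0.64 to 0.86) and Longan Arillus (0.4 to 0.78). There the replicate block also gave 0 calls. Soshiho-tang has only 2 pairs between doses. Both stood at 0.38 between its high and medium doses, which are not compared here.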

Additional observations from a re-analysis of the deposited data

Results flagged for a closer look

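The change from low to high dose differed between extracts given at the same doses within 1 library set, by a test of the difference itself. Between Soshiho-tang and Yijin-tang it differed for 24 of the 42 mitotic genes (edgeR's quasi-likelihood test, adjusted p under 0.05), lower with Soshiho-tang in each of them. Of all genes tested 4.3% were lower and 5.1% higher in that difference. Between Longan Arillus and Zizyphi Semen it differed for 7, higher with Longan Arillus in each. There 2.55% of all genes were higher and 1.41% lower. These 7 are the genes that fell with Zizyphi Semen, whose libraries enter both results. They did not pass in a fit of the compared libraries alone.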

How the results depend on the processing

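None of the calls at the high dose against the low dose changed direction under any alternative; genes that were not called could, such as those above 0 with Yijin-tang (41 of 42, and 30 against the vehicle) and the 4 genes named for Polygalae Radix. Counts of genes called at the high dose moved by more than 1.5 times in these cases. With only the compared libraries in the fit, Yijin-tang had 17, Longan Arillus 0, Zizyphi Semen 3 and the difference between the latter 2 extracts 0. With no filter, Soshiho-tang had 15, Longan Arillus 0, Zizyphi Semen 4 and that difference 3. For Longan Arillus (1 in the report), DESeq2's size factors gave 2, its test 4, the GC correction 5 and the replicate block 0. Against the vehicle, a library set of its own, the high doses of Zizyphi Semen, Longan Arillus, Yijin-tang and Liriopis seu Ophiopogonis Tuber had 20, 13, 15 and 3, and the medium doses of Zizyphi Semen, Longan Arillus, Yijin-tang, Soshiho-tang, Schisandrae Fructus and Liriopis seu Ophiopogonis Tuber 8, 14, 5, 3, 2 and 3. Of the 17851 genes tested, 946, 1002, 1431 and 254 rose and 1423, 1837, 2095 and 476 fell at those high doses. At those medium doses 948, 1794, 687, 226, 366 and 724 rose and 1627, 2707, 1849, 523, 596 and 1588 fell. At 1.5-fold Polygalae Radix high had 21, given without the share of all genes. Leaving out each library in turn gave 3 to 15 for Yijin-tang, 13 to 24 for Soshiho-tang, 32 to 38 for Schisandrae Fructus, 0 to 5 for Longan Arillus, 4 to 8 for Zizyphi Semen, 16 to 29 for the difference between the decoctions and 4 to 12 for that between the herbs; the fit without Longan Arillus medium replicate 3 was added after seeing the data. Apart from fewer libraries or more genes tested, the cause was not tested. Except against the vehicle, the counts under these alternatives, here and above, are given without the share of all genes in the same fit. A moved count therefore need not be particular to the 42 genes.

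In no high-against-low comparison did the replicate numbers pair the libraries: over all doses 29 of 51 pairs with the same number had a correlation of deviations over 0.1 (median 0.16, range -0.48 to 0.86), and 25 correlated best with their own number. With the replicate block the counts at the high dose were 12 for Yijin-tang, 24 for Soshiho-tang, 37 for Schisandrae Fructus and 7 for Zizyphi Semen, and 0 for all 6 medium doses. They are also given without the share of all genes. Leaving out a Soshiho-tang library leaves 1 at that dose, also in the difference between the decoctions. Depth limits small changes of the least abundant genes, such as CENPA and SGO1; the widest 95% interval at the high dose was ± 0.25 for Soshiho-tang and ± 0.21 for the others.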
